A study of Mus musculus with 3 samples.

Results

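miR-451a, miR-144-3p and miR-144-5p (mmu-miR-451a, mmu-miR-144-3p and mmu-miR-144-5p in the files) are the mature miRNAs of a locus that is transcribed mainly in red blood cell precursors. They were chosen by name, and all 3 were listed among the 1138 mature mouse miRNAs of the deposited files. Small RNA-Seq was performed on the tibialis anterior (TA), a shin muscle, of WT C57BL/6 mice labelled as 10 weeks old. The time points were day 0, when the study's text describes the muscle as uninjured, and days 1 and 3 after cardiotoxin (CTX), a venom peptide that lyses myofibers, was injected into the muscle. The labels mention saline as a control but do not say whether the day 0 muscles received it, and whether the muscles were perfused to remove blood is not given in the sources used here. Each library was a pool of 4 samples and stood alone for its time point, so there were no replicates, variation from mouse to mouse could not be assessed, and every comparison below is between single libraries.

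miR-451a and miR-144 are cut from 1 primary transcript whose synthesis depends on the erythroid transcription factor GATA1. Their levels climb as red cell precursors mature, and miR-451a remains as an abundant small RNA of the circulating red cell, which has no nucleus. For that reason miR-451a is widely used as a gauge of red cells or of hemolysis in plasma and tissue samples. Its maturation is unusual, because its short hairpin bypasses Dicer and is sliced by the Argonaute protein Ago2 and then trimmed, whereas miR-144 is processed by Dicer and can yield a product from each arm. In a whole muscle, reads of these miRNAs can come from blood in vessels or from blood that has left them, and the libraries do not separate the 2.

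The locus lies on chromosome 11 of GRCm38.p6, on the plus strand, at chr11:78073005-78073241. Mir144 occupies chr11:78073005-78073070 and Mir451a chr11:78073170-78073241, with 99 bases between the hairpins. In GENCODE M21, neither hairpin overlaps an exon or intron of a protein-coding gene. The nearest protein-coding genes are Eral1, on the minus strand, whose 3′ end lies 135 bases past the end of Mir451a, and Flot2, on the plus strand, which ends 12571 bases before Mir144. A further hairpin, Mir451b, is annotated on the minus strand over the same bases as Mir451a. miR-451b was not analysed here, and whether the authors' counting used the strand is not stated.

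The mature sequences are shown because their seeds (bases 2 to 8, in capitals), which select target mRNAs, differ between the members. They are the RefSeq sequences for GRCm38.p6, and all 3 names matched.
miR-451a: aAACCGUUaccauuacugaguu
miR-144-3p: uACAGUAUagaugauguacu
miR-144-5p: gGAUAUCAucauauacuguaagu
Of the 1138 miRNAs in the files, 953 had a sequence in this table, and none of the other 952 shared bases 2 to 8 with a member. For miR-451a and miR-144-5p, none shared bases 2 to 7 either. miR-144-3p shared bases 2 to 7, but not base 8, with miR-101a-3p, a miRNA transcribed from another chromosome.
miR-101a-3p: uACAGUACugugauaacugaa
The level of miR-101a-3p was 37.3 counts per 1000000 reads of the library (CPM) at day 0, 24.8 at day 1 and 15.8 at day 3, so that miR-101a-3p was at a level close to that of miR-144-3p on day 0 and below it on both later days.

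The hairpins are shown because miR-451a and miR-144 sit in them differently. The mature miRNAs are in capitals.
Mir451a: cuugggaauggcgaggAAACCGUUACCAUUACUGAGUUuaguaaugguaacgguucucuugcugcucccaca
Mir144: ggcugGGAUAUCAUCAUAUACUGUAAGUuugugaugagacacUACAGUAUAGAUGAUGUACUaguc
miR-451a covered positions 17 to 38 of its hairpin of 72 nucleotides. In the minimum free energy fold of RNAfold, its first 18 bases lay on the 5′ arm and its last 4 filled the terminal loop. miR-144-5p (positions 6 to 28) and miR-144-3p (positions 43 to 62) of the 66-nucleotide Mir144 hairpin each lay wholly on 1 arm.

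The libraries held 8507580 reads at day 0, 6421056 at day 1 and 9795076 at day 3. A count of 3 reads, used only as a reference level, corresponded to 0.353, 0.467 and 0.306 CPM. The 6 listed myofiber miRNAs, the defining miRNAs of the labelled tissue, took up 27.3% of the day 0 reads, 9.13% of the day 1 reads and 27.7% of the day 3 reads. Most of the day 3 share was miR-206-3p, a miRNA of regenerating muscle, with 1763128 reads against 105359 on day 0. On day 3 against day 0, miR-1a-3p, miR-133a-3p and miR-499-5p had log2 fold changes of -1.41, -1.82 and -1.98, and miR-133b-3p of 0.41. The remaining listed miRNA, miR-208b-3p, had 4 reads at day 0 and 10 at day 3. CPM is a share of the reads, so the level of each miRNA depends on the reads of all the others. The median log2 fold change of the 513 miRNAs with a mean of at least 10 reads was 1.20 on day 1 and 1.44 on day 3 against day 0, and 0.01 on day 3 against day 1. Intervals are 95% intervals (Wilson for CPM, Wald for fold changes, Clopper-Pearson for shares within the locus) and cover the counting error of reads only. They treat reads as independent, and since PCR copies are not independent molecules they may be too narrow.

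miR-451a was among the most abundant miRNAs of the muscle. The uninjured library held 60399 of its reads, the day 1 library 161668 and the day 3 library 122237. These corresponded to 7099 CPM before injury (95% interval 7043 to 7156), 25178 CPM at day 1 (25057 to 25299) and 12479 CPM at day 3 (12410 to 12549). By library totals the level was highest on day 1 and lowest on day 0, with no overlap of the counting intervals. Which of days 0 and 3 was lower depended on the scaling, since the log2 fold change of day 3 against day 0 was -0.11 with edgeR's TMM factors, which are set after trimming the miRNAs with extreme levels and changes, and -0.31 by median of ratios. By abundance, miR-451a ranked 18 among the 784 miRNAs with at least 1 read at day 0, 8 among 915 at day 1 and 18 among 987 at day 3.

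miR-144-3p, the more abundant arm of miR-144, was much less abundant than miR-451a but followed the same order of days by library totals. Its reads numbered 365 at day 0, 953 at day 1 and 787 at day 3. This gave 42.9 CPM before injury (38.7 to 47.5), 148.4 CPM at day 1 (139.3 to 158.1) and 80.3 CPM at day 3 (74.9 to 86.2). The 3 intervals did not overlap.

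miR-144-5p, the other arm, was the least abundant member. Its reads numbered 23 at day 0, 58 at day 1 and 36 at day 3, equal to 2.70 CPM before injury (1.80 to 4.06), 9.03 CPM at day 1 (6.99 to 11.7) and 3.68 CPM at day 3 (2.65 to 5.09). The interval of day 1 lay above those of the other days, while days 0 and 3 were not distinguishable at this depth. All 3 members together took 0.715% of the reads at day 0, 2.53% at day 1 and 1.26% at day 3, almost all of them miR-451a.

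**Figure D1:**
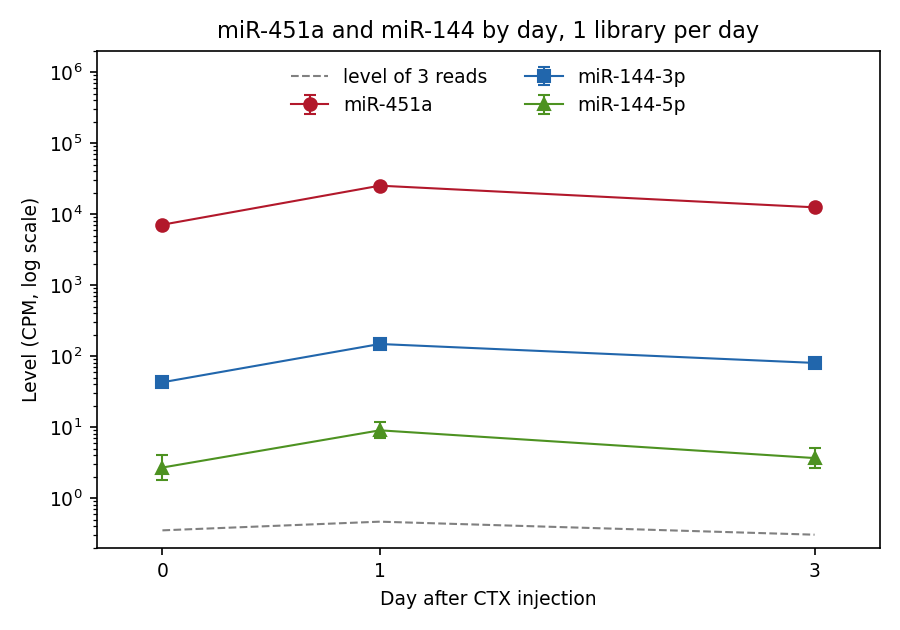
Level of miR-451a, miR-144-3p and miR-144-5p in CPM (log axis) against the day after CTX injection, with 1 library per day. Bars are 95% Wilson intervals for counting error, and the dashed line is the level of 3 reads. Each miRNA was highest on day 1, where miR-451a was at 25178 CPM, miR-144-3p at 148.4 CPM and miR-144-5p at 9.03 CPM.

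To compare the injured with the uninjured muscle, the CPM of each member was compared between libraries, and a fold of 2 in either direction was counted as a change. On day 1 all 3 members were past that fold. miR-451a rose 3.55-fold (log2 fold change 1.83, 1.81 to 1.84), miR-144-3p rose 3.46-fold (1.79, 1.62 to 1.96) and miR-144-5p rose 3.34-fold (1.74, 1.04 to 2.44). Of the 513 miRNAs tested, 53.8% were higher by a fold of 2 or more in the same comparison, so a rise of this kind was common among all miRNAs. The log2 fold change of miR-451a exceeded the median of the 513 by 0.63 and was above that of 62.8% of them. For miR-144-3p and miR-144-5p these values were 0.59 above the median and 61.8%, and 0.54 above the median and 61.2%. The rise past a fold of 2 depended on the scaling: with TMM factors the log2 fold changes were 0.88, 0.85 and 0.80, and none of the members passed.

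On day 3 no member was past a fold of 2 relative to day 0, whereas 57.3% of the 513 miRNAs were higher and 10.3% lower by that fold. The level of miR-451a was 1.76 times that on day 0 (log2 fold change 0.81, 0.80 to 0.83), that of miR-144-3p 1.87 times (0.91, 0.73 to 1.08) and that of miR-144-5p 1.36 times (0.44, -0.31 to 1.20). The interval of miR-144-5p included no difference. All 3 members lay below the median of the 513 miRNAs, miR-451a by 0.63, miR-144-3p by 0.54 and miR-144-5p by 1.00 on the log2 scale. The sign of the difference from day 0 also depended on the scaling, since with TMM factors the log2 values were -0.11, -0.021 and -0.48. Days 1 and 3 were each compared with the same day 0 library, so both sets of values share it.

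Between the injured libraries, the members were lower on day 3 than on day 1. miR-451a fell 2.02-fold (log2 fold change -1.01, -1.023 to -1.002) and miR-144-5p fell 2.46-fold (-1.30, -1.90 to -0.70). miR-144-3p was 1.85-fold lower (-0.89, -1.02 to -0.75), short of a fold of 2. A fall past that fold was found for 16.0% of the 513 miRNAs and a rise past it for 23.6%, and the median of all of them was 0.01. miR-451a was just past the fold threshold and fell short of it with TMM factors (-0.99). Without the myofiber miRNAs in the total, miR-451a was at -0.68 and miR-144-5p at -0.97, with the deposited expression values they were at -0.54 and -0.95, and under both settings no member passed. The direction was the same under each scaling tried, with log2 values for miR-451a from -1.09 to -0.54.

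**Figure D2:**
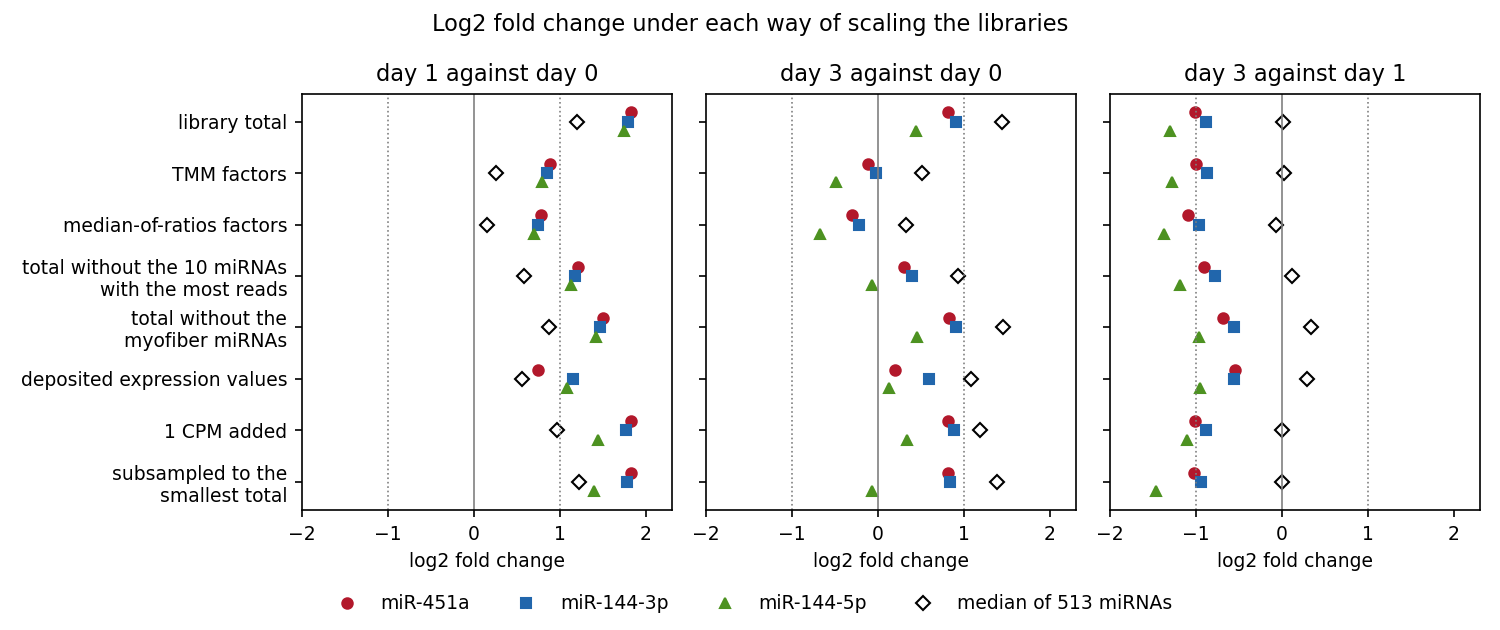
Log2 fold change of the 3 members and the median of the 513 tested miRNAs (open diamonds) under 8 ways of making the levels, for day 1 against day 0, day 3 against day 0 and day 3 against day 1. Dotted lines mark a fold of 2. Against day 0, miR-451a ranged from 0.75 to 1.83 on day 1 and from -0.31 to 0.82 on day 3. The settings that change only the divisor move all miRNAs together, so the distance of miR-451a from the median is fixed in them at 0.63 on day 1 and -0.63 on day 3. With the deposited expression values it was 0.19 and -0.89, with 1 CPM added 0.86 and -0.37, and with subsampled reads 0.61 and -0.57.

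Whether the members of the locus kept their proportions was examined inside each library, where the result does not depend on how libraries are scaled to each other. For each read of miR-144 (both arms) there were 155.7 reads of miR-451a before injury (140.9 to 172.5), 159.9 at day 1 (150.3 to 170.3) and 148.5 at day 3 (138.7 to 159.3). The 3 intervals overlapped. The ratio on day 1 was 1.03 times that on day 0 (0.913 to 1.16), and Fisher's exact test, two-sided, gave an adjusted p of 0.78 (Benjamini-Hochberg over the 6 tests of this kind). The ratio on day 3 was 0.954 times that on day 0 (0.845 to 1.08, with an adjusted p of 0.69 by that exact test) and 0.929 times that on day 1 (0.847 to 1.02, adjusted p = 0.51). The interval of the ratio on day 1 reached 1.16 times that on day 0, beside the 3.55-fold rise of miR-451a itself. In the deposited expression values, which were below the reads for miR-451a, the ratio was lower and differed more between the libraries, with 112.3 before injury, 84.7 at day 1 and 87.0 at day 3.

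The arms of miR-144 were compared in the same way. miR-144-5p accounted for 5.93% of the 388 miR-144 reads before injury (3.79 to 8.76), 5.74% of the 1011 reads at day 1 (4.38 to 7.35) and 4.37% of the 823 reads at day 3 (3.08 to 6.00). The odds of a 5p read on day 1 were 0.966 times those on day 0 (0.587 to 1.59, with an adjusted p of 0.90 by the exact test). On day 3 they were 0.726 times those on day 0 (0.424 to 1.24, adjusted p = 0.51) and 0.752 times those on day 1 (0.491 to 1.15, adjusted p = 0.51). With so few 5p reads, a difference in arm use within these intervals was not detectable.

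**Figure D3:**
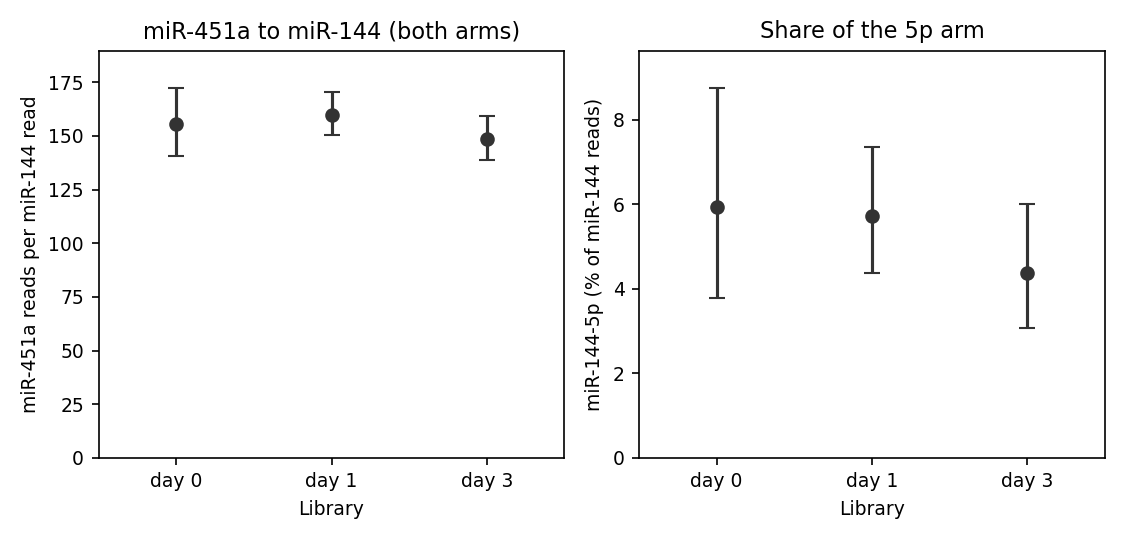
Left, reads of miR-451a per read of miR-144 (both arms) in each library. Right, miR-144-5p as a percentage of the miR-144 reads. Bars are 95% Clopper-Pearson intervals of the read counts, both axes start at 0, and the intervals of the 3 libraries overlap in each panel, with 155.7, 159.9 and 148.5 on the left and 5.93%, 5.74% and 4.37% on the right.

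The members were then set beside other miRNAs known to be abundant in red cells, a list of 14 that are also expressed in other cells. On day 1, 10 of the 14 were higher by a fold of 2 or more and 2 were lower (53.8% and 10.9% of all 513). The median log2 fold change of the list was 1.95 on day 1 (1.83 for miR-451a, 1.20 for all 513), 2.17 on day 3 against day 0 (0.81 and 1.44) and -0.19 on day 3 against day 1 (-1.01 and 0.01), so miR-451a was close to the median of the list in the first comparison and below it in the others. miR-16-5p, a widely expressed miRNA that is also among the most abundant of red cells, had a level of 10613 CPM at day 0, 37972 at day 1 and 22425 at day 3. The number of miR-451a reads per miR-16-5p read was 0.669 at day 0, 0.663 at day 1 and 0.557 at day 3, and per miR-92a-3p read it was 6.69, 6.41 and 2.91. For other members of the list the ratio to miR-451a differed between days 0 and 1. The number of miR-451a reads per read was 45.4 at day 0 and 15.9 at day 1 for miR-15b-5p, 101.5 and 45.5 for miR-25-3p, 635.8 and 286.1 for miR-106b-5p, and 16.8 and 58.3 for miR-185-5p. The list members lower on day 1 by a fold of 2 or more were miR-486a-5p and miR-486b-5p, red cell miRNAs that are also made in myofibers from an Ank1 intron. The files list the same reads for both, 8634 at day 0, 2715 at day 1 and 3622 at day 3, so they are 1 measurement, although both enter the counts and medians of the 14. The level of each was thus 1015, 422.8 and 369.8 CPM, and miR-451a was 6.995 times as abundant on day 0, 59.5 times on day 1 and 33.7 times on day 3. On day 3, 11 of the 14 were higher than on day 0 by a fold of 2 or more and 2 were lower (57.3% and 10.3% of all 513). Between days 1 and 3, 9 of the 14 had a lower level on day 3 (253 of all 513 did), and none of the 14 was lower by a fold of 2, where 16.0% of all 513 were. The lowest log2 fold change in the list was -0.87, for miR-25-3p. The 3 that were higher by a fold of 2 or more (23.6% of all 513) were miR-182-5p, miR-183-5p and miR-96-5p, which form 1 cluster, with log2 fold changes of 3.70, 5.57 and 3.18. They were at 236.9, 214.7 and 39.5 CPM on day 3 against 6.35, 6.70 and 0.823 on day 0.

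Other components of blood and vessel were measured by 3 further lists. Of the 8 leukocyte miRNAs, 6 were higher by a fold of 2 or more on day 1 and 6 on day 3, with medians of 3.96 and 3.57 on the log2 scale (53.8% and 57.3% of all 513 were higher, with medians of 1.20 and 1.44). miR-223-3p, the myeloid miRNA, was at 97.8 CPM at day 0, 7815 at day 1 and 1896 at day 3, and the number of miR-451a reads per miR-223-3p read was 72.6 at day 0, 3.22 at day 1 and 6.58 at day 3. The miR-451a level thus differed far less between the libraries than that of miR-223-3p. miR-150-5p, a miRNA of mature lymphocytes, was at 4733, 8307 and 3197 CPM, and was within a fold of 2 of day 0 on both days by library totals.

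The endothelial miRNAs miR-126a-3p and miR-126a-5p come from an intron of Egfl7 and mark the vessel wall. miR-126a-3p was at 57836 CPM at day 0, 127912 at day 1 and 57349 at day 3. miR-126a-5p was at 1591, 5011 and 1383 CPM. Both were higher by a fold of 2 or more on day 1 (2.21-fold and 3.15-fold), as were 53.8% of all 513 miRNAs, and both were within that fold on day 3. The number of miR-451a reads per miR-126a-3p read was 0.123 at day 0, 0.197 at day 1 and 0.218 at day 3, so that miR-451a was higher relative to the vessel marker in both injured libraries than on day 0. The miRNAs miR-122-5p and miR-192-5p, made mainly in liver (miR-122-5p) and in liver and gut (miR-192-5p) and carried in plasma, were listed for blood plasma. miR-122-5p had 55 reads at day 0, 199 at day 1 and 156 at day 3, and its level was 6.46, 31.0 and 15.9 CPM. miR-192-5p was at 155.9, 574.0 and 173.6 CPM. Both were highest on day 1 and higher by a fold of 2 or more on that day (4.79-fold and 3.68-fold), a rise that the same 53.8% of all miRNAs passed. miR-122-5p was past that fold on day 3 as well (2.46-fold), as were 57.3% of all 513, while miR-192-5p was not (1.11-fold). TMM factors lowered all log2 fold changes against day 0 by 0.94 on day 1 and 0.93 on day 3. With them 7 of the 14 red cell miRNAs, 6 of the 8 leukocyte miRNAs, neither endothelial miRNA and 1 of the 2 plasma miRNAs were higher by a fold of 2 or more on day 1, and 3 of the red cell miRNAs were lower (33.7% of all 513 higher and 24.4% lower). On day 3 with these factors, 9 of the 14 red cell and 6 of the 8 leukocyte miRNAs were higher by that fold, and 3 red cell, 1 leukocyte and 1 endothelial miRNA were lower (39.4% of all 513 higher and 23.0% lower). The lower red cell miRNAs of both days included miR-486a-5p and miR-486b-5p, which are 1 measurement. In these bulk samples, more cells of a type and more RNA per cell cannot be told apart, and the part that blood content had in the level of miR-451a was not tested.

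**Figure D4:**
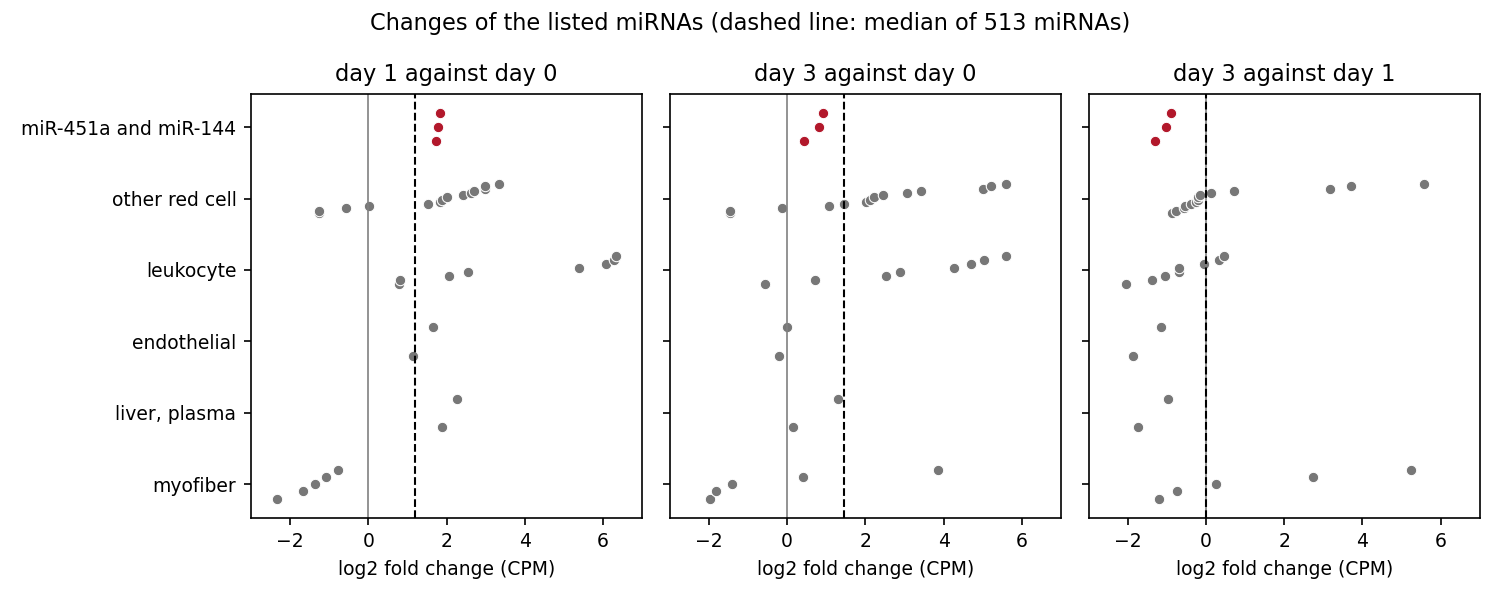
Log2 fold change in CPM of miR-451a and the miR-144 arms (red) and of the other listed miRNAs with a mean of at least 10 reads (grey) in each comparison. The dashed line is the median of the 513 tested miRNAs, 1.20, 1.44 and 0.01 from left to right. The members lay close together, to the right of the median on day 1 and to the left of it on day 3.

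A ratio used to judge red cell RNA in plasma is that of miR-451a to miR-23a-3p, a miRNA that red cells hold at a low level. The log2 of this ratio was 0.93 before injury (0.91 to 0.95), 0.44 at day 1 (0.43 to 0.45) and 0.34 at day 3 (0.33 to 0.36). It was highest on day 0 and lowest on day 3. miR-23a-3p itself was at 3730 CPM at day 0, 18522 at day 1 and 9831 at day 3, and its 4.97-fold difference between days 0 and 1 was larger than that of miR-451a, so the reference of the ratio was not stable in these libraries. Of the 5 myofiber miRNAs with a mean of at least 10 reads, 4 were lower by a fold of 2 or more on day 1, where 10.9% of the 513 miRNAs were. On day 3, 3 of these 5 were lower by that fold than on day 0, as were 10.3% of all 513. Of the 5, only miR-206-3p was higher by that fold, as were 57.3% of the 513. miR-1a-3p had 32.9 times the level of miR-451a at day 0, 2.93 times at day 1 and 7.06 times at day 3. For miR-206-3p these values were 1.74, 0.190 and 14.4.

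The miRNAs most like miR-451a were sought among the 298 others with a mean of at least 100 reads, by the distance between their log2 fold changes on days 1 and 3 relative to day 0. This likeness rests on 3 libraries and 2 values that share the day 0 library. miR-186-5p was nearest (distance 0.06), with 202 reads at day 0, 564 at day 1 and 413 at day 3. miR-144-3p was second (0.10), ahead of miR-16-5p (0.27), miR-24-3p (0.28), miR-15a-5p (0.39) and miR-350-3p (0.41). miR-15a-5p is made in a cluster with 1 of the copies of miR-16. miR-24-3p was at 4812, 15913 and 10136 CPM, and its log2 fold changes were 1.73 on day 1 and 1.07 on day 3. miR-144-5p, with a mean below 100 reads, was not compared.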

How the data were processed

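RNAs of 18 to 30 nucleotides from TA muscle were sequenced by the authors on the BGISEQ platform and aligned to GRCm38.p6. The submitters' processing notes name HISAT and Bowtie2, while the counting tool is not given in the sources used here. The authors deposited a read count per mature miRNA, without normalization, and an expression value, handled as a score because its derivation is not stated. Counts were divided by the library total to give CPM. With 1 library per time point no replicate model was fitted. The study's thresholds include a false discovery rate, but its test is not named, so fold changes were counted at its fold of 2 alone, over the 513 miRNAs with a mean of at least 10 reads. Ratios within the locus were compared by two-sided Fisher's exact tests with Benjamini-Hochberg adjustment, which compare libraries and not conditions. The members and lists were chosen with earlier results of these data known. The miRNAs named were the members, those of the lists, those sharing a seed and the 5 nearest to miR-451a. Distances used log2 CPM with 1 read added. The alternatives were edgeR's TMM and DESeq2's median-of-ratios factors, totals excluding the 10 most abundant miRNAs or the myofiber miRNAs, the deposited expression values, 1 CPM added, subsampling and a fold of 4. TMM counts for the other lists were added after the values were seen. The fold and interval calculation was tested on simulated counts. Tools were R 4.3.3 with edgeR 4.0.16 and DESeq2 1.42.0, RNAfold 2.7.2, and Python 3.11.15 with matplotlib 3.10.9, scipy 1.17.1, pandas 2.3.3 and numpy 2.4.6.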

Additional observations from a re-analysis of the deposited data

How the results depend on the processing

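The log2 fold change of miR-451a on day 1 was 0.88 after TMM scaling, 0.78 by median of ratios, 1.21 when the 10 most abundant miRNAs were excluded from the total, 1.50 when the myofiber miRNAs were, and 0.75 in the deposited expression values. With TMM or median-of-ratios factors, or with a fold of 4, 0 members were counted as higher on day 1. On day 3 the log2 fold changes of miR-451a, miR-144-3p and miR-144-5p relative to day 0 changed sign with TMM factors (-0.11, -0.021 and -0.48) and with median-of-ratios factors (-0.31, -0.21 and -0.68). With the 10 most abundant excluded, miR-451a was at 0.31 and miR-144-5p at -0.065. miR-144-5p was at -0.067 with subsampled reads, and miR-451a was at 0.20 with the deposited expression values. For day 3 against day 1, miR-451a was at -0.99, -1.09, -0.90, -0.68 and -0.54 under the same 5 settings in the order given for day 1. The number of members lower by a fold of 2 was 1 with TMM factors or without the 10 most abundant miRNAs, and 0 without the myofiber miRNAs, with the deposited expression values or with a fold of 4. TMM factors, median-of-ratios factors and the reduced totals are changes of divisor, which move all miRNAs of a library by the same factor and account for those shifts. Subsampling was 1 random draw of the reads, and its value of -0.067 for miR-144-5p lay within the counting interval from all reads (-0.31 to 1.20). The cause of the shifts with the deposited expression values was not tested. With TMM factors, 33.7% of the 513 miRNAs were higher and 24.4% lower on day 1, and 23.0% lower on day 3. With all miRNAs that had at least 1 read in either library, 16.5% were lower on day 1 than on day 0, and 24.5% lower on day 3 than on day 1. By the deposited expression, miR-451a divided by miR-144 was 112.3, 84.7 and 87.0 on days 0, 1 and 3, and the log2 ratio of miR-451a to miR-23a-3p was 0.74, 0.27 and 0.21. No paired analysis was possible because each time point has 1 library. For the same reason no library could be left out.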

Other observations

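The deposited expression value of miR-451a was 71.9% of its read count on day 0, 52.6% on day 1 and 58.3% on day 3, whereas that of miR-144-3p was 99.7%, 99.4% and 99.6%, and that of miR-144-5p 100%, 98.3% and 100%. In these values the ratio of miR-451a to miR-144 was lower in each library than in the reads, and it was lower on days 1 and 3 (84.7 and 87.0) than on day 0 (112.3), while the ratio in the reads had overlapping intervals in the 3 libraries. A comparison of miR-451a with miR-144 made on the deposited expression values would therefore give other ratios than one made on the reads. Whether the ratios of the deposited values differed between libraries by more than counting error was not tested. Which of the values is closer to the number of molecules was not tested.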
